A study of Mus musculus with 2 samples.

Results

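The presynaptic vesicle release genes are 36 mouse genes, of 21938 protein-coding genes annotated, whose proteins store, dock, prime, fuse or retrieve synaptic vesicles. They were chosen by name: 3 synapsins, 9 synaptotagmins, 6 SNARE and complexin genes, 5 genes of vesicle membrane proteins and Rab3a, 10 active zone genes and 3 endocytosis genes. Sites were found from the optimal peak list of a CTCF experiment, the list that passed an irreproducible discovery rate threshold. A promoter site is a peak whose summit, its highest point as the list gives it, lay within 1 kb of a transcription start site (TSS) of a GENCODE M21 transcript on mm10. A gene body site is a peak whose summit lay between the ends of the gene. The 36 genes held 143 distinct sites of 56470 in the list, 24 of them at promoters and 134 in gene bodies, and some were both.

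Forebrain of B6NCrl mice at an age of 0 days after birth was used for ChIP-seq, in which DNA bound by CTCF is pulled down with an antibody and sequenced. Forebrains of several dissections had been pulverized and pooled, and sex was not collected. The series holds 1 group of 2 libraries, replicates 1 and 2, with no engineered allele or treatment named. Their labels name the same biosample and donor, and what separates them may be technical only. With 1 group there was no contrast between conditions and no test, and the experiment that the labels name as control was not used here. Forebrain holds many cell types, so strong binding in few cells and weak binding in many cannot be told apart. Peak lists hold no expression values, so tissue markers were not checked.

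The authors' signal value per peak is the strength given here. Its scale was not stated, and read depth is not given in the sources used here. The optimal list ran from 5.29 to 662.3 with a median of 64.3. The list called on both libraries together and the lists of each replicate held 300000 peaks each, with medians of 7.84, 4.78 in replicate 1 and 4.18 in replicate 2. A value from a replicate's own list is therefore not on the scale of the optimal list, and each is named where it is given. Intervals on shares are 95% Wilson intervals and cover counting error only.

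Synaptic vesicles fuse at the active zone when calcium binds synaptotagmin and SNARE proteins on vesicle and plasma membrane zip together. Synapsins tether the reserve of vesicles, active zone scaffolds dock and prime them beside calcium channels, and dynamin and its partners take the membrane back up. CTCF reads a directional DNA motif with its zinc fingers, stops cohesin as it extrudes chromatin loops and so anchors loops, often between motifs that face each other.

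The sequences below show what CTCF's summits lay on at the strongest motif-bearing site of each role group. Each is 30 bases of GRCm38 (mm10), 5′ to 3′ on the strand of the motif, with the 14-base CTCF core motif in the middle. Capitals mark bases of the core that match the consensus, and lower case inside the core marks mismatches.
Syn3, intron, chr10:86065011-86065040, plus strand: cagaatgaCCACTAGATGGCAatgtcctcc
Syt7, untranslated exon, chr19:10449906-10449935, plus strand: taattctaCCACCAGGTGGCACcagaacac
Cplx2, intron, chr13:54372942-54372971, minus strand: gggcctcaCCgCCAGGaGGCGCtcctcagc
Sv2c, intron, chr13:95973578-95973607, plus strand: tgccgtggCCACacGGTGGCAGcagaaagc
Erc2, intron, chr14:27808261-27808290, plus strand: catttcgcCCACTAGATGGCGCtggtgaat
Dnm1, promoter, chr2:32353353-32353382, plus strand: ccaggccgCCgCTAGATGGCGCgcggggat
Their signal values were between 298 and 363, and the number of mismatches was 0 at Syt7 and Erc2, 1 at Syn3 and Dnm1, and 2 at Cplx2 and Sv2c. Dnm1's was the only promoter among the 6.

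A second set, chosen after the values were seen, shows 5 further promoters, all with signal values above 100. Amph and Cplx2 carried the core with 2 mismatches, and Syn3, Erc2 and Ppfia3 had no match within 50 bp of the summit at that limit, so their closest stretch is printed.
Amph, promoter, chr13:18948223-18948252, minus strand: atgtgcggCCACTAGGGGtgACaacgccac
Cplx2, promoter, chr13:54371506-54371535, minus strand: ggctgactCCAGCAGGcGGtGCcgtgtgct
Syn3, promoter, chr10:86498895-86498924, minus strand: ccagtctgCCcagAGGaGGCGCtcacgtac
Erc2, promoter, chr14:27622280-27622309, minus strand: tgggcacctCcGCgGGGGGCAGcagagagt
Ppfia3, promoter, chr7:45367501-45367530, plus strand: actcctacgCAGacGGTGGCACggcccgca
The Syn3 stretch had 4 mismatches to the core, and those of Erc2 and Ppfia3 had 3.

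CTCF sat at the promoters of 19 of the 36 genes, or 52.8% (37.0 to 68.0%), where 36.8% of all protein-coding genes had such a site. The promoter sites ran from 19.3 at Syt3 to 368 at Syn3 with a median of 47.9, and all promoter summits of protein-coding genes had a median of 48.1. Sites at or above the optimal list's median signal value stood at 8 promoters, those of Syn3, Syt6, Syt7, Cplx2, Erc2, Ppfia3, Dnm1 and Amph. That is 22.2% of the genes (11.7 to 38.1%), against 16.9% of all protein-coding genes. Gene bodies held a site in 33 of 36 genes, or 91.7% (78.2 to 97.1%), against 53% of all protein-coding genes. The 3 without were Vamp2, Sv2a and Synj1.

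**Figure D1:**
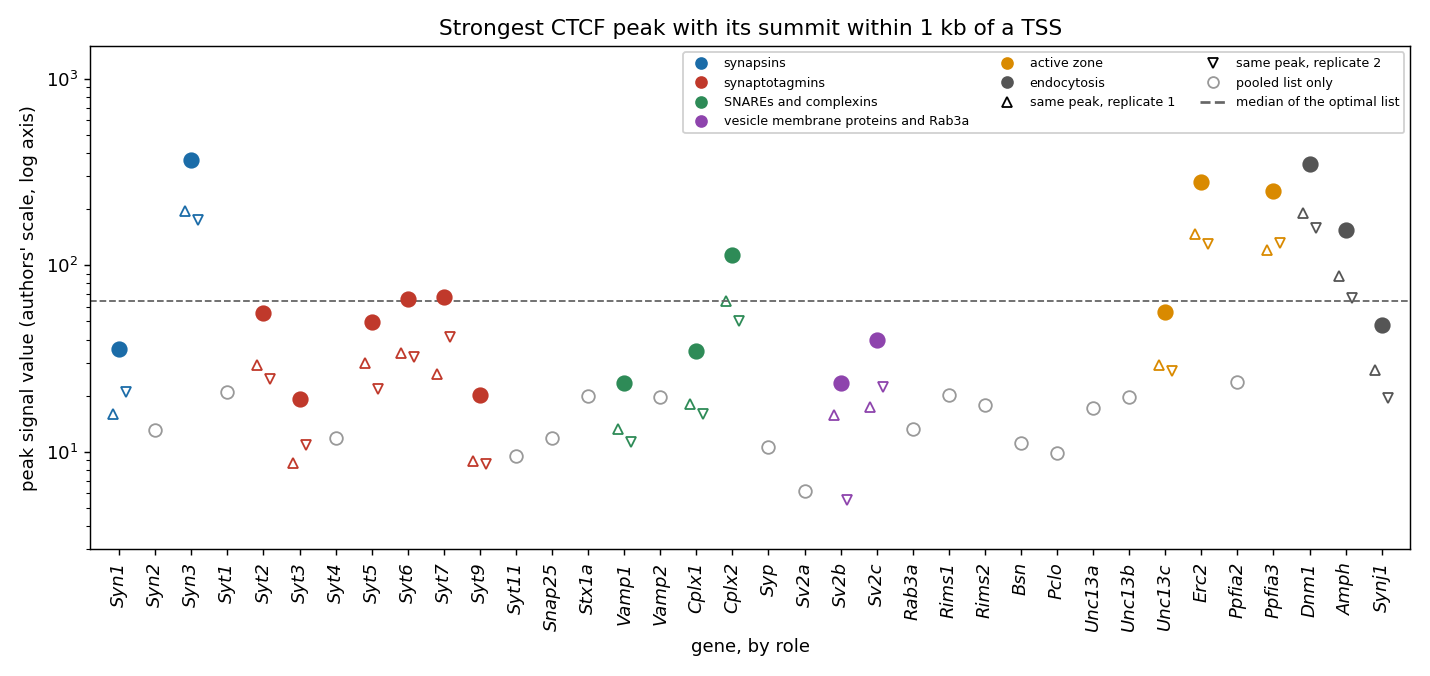
Strongest CTCF peak with its summit within 1 kb of a TSS of each of the 36 genes, ordered by role, with the authors' signal value on a log axis. Filled circles are optimal-list peaks, and triangles the same peak in each replicate's own list. Open grey circles stand for genes without an optimal-list promoter site, at their strongest peak in the list called on both libraries together. The dashed line is the optimal list's median of 64.3. Syn3, Dnm1, Erc2 and Ppfia3 stand above 200, and the grey circles lie between 6.19 and 23.8.

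Both the GC content around the start sites and the gene lengths differed from those of other genes, and both go with CTCF sites in this list. Median GC in the 500 bp on either side of the start was 61.0% for the 36 genes and 54.7% for all protein-coding genes. By quintile of GC, the share of all genes with a promoter site rose from 7.36% to 24.2, 40.1, 52.9 and 59.7%. The 36 genes had a site at 0 of 0, 1 of 3, 4 of 8, 5 of 11 and 9 of 14 promoters in the same quintiles. Within a quintile the counts of these genes therefore lay near the share of all genes. The part of GC content in the overall difference was not tested.

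Synapsins coat vesicles and tie them to each other and to actin, and the 3 genes had very different promoters. The Syn3 promoter peak (chr10:86498747-86499029) had its summit 22 bp upstream of a TSS and a signal value of 368, with 195 in replicate 1 and 174 in replicate 2. It ranked above 97.2% of the optimal list and was the strongest promoter site of the 36 genes. At Syn1 (chrX:20920624-20920923) the summit lay 144 bp past the TSS in a coding exon, with a signal value of 35.6, 15.9 in replicate 1 and 20.9 in replicate 2. Syn2 had no promoter site, and its nearest summit was 35.4 kb away inside the gene. Both replicates put Syn3 far above Syn1.

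The synapsin gene bodies held 22 summits, of which 16 were in Syn3, the most of any of the 36 genes, and 5 in Syn2. Syn3 is 444 kb long, and its sites ranged from 24.97 to 362. Its strongest internal site, in intron 10 (chr10:86064883-86065177), had 362, with 211 in replicate 1 and 152 in replicate 2, and carries the Syn3 intron sequence printed above. Others stood at 339 and 275 in intron 2, at 307 in intron 6 and at 255 in the first intron. Timp3, a metalloproteinase inhibitor gene that lies within Syn3, covers 2 of the sites, with values of 202 and 26.7, so those cannot be assigned to Syn3 alone. In Syn2 the strongest site was in intron 10 (chr6:115267957-115268218) at 357, with 182 in replicate 1 and 175 in replicate 2. A second strong Syn2 site at 303, with 0 mismatches to the core, lay in the first intron within 1 kb of the TSS of Gm17482 and inside it.

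Synaptotagmins are the calcium sensors of the vesicle, with Syt1, Syt2 and Syt9 the fast sensors and Syt7 a slower one. A promoter site was found at 6 of 9 genes, but none passed a signal value of 67.3. That highest one was at Syt7 (chr19:10388856-10389155), 84 bp upstream, with 26.3 in replicate 1 and 41.3 in replicate 2. Syt6 had sites of 66.1 and 28.3, with 33.7 and 32.3 in replicates 1 and 2 at the stronger of them. The stronger Syt2 site (chr1:134709817-134710116), with 55.6, lay at an internal start and not at the 5′ end of the gene. It had 29.2 in replicate 1 and 24.6 in replicate 2, and a weaker neighbour stood at 29.0.

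Syt5, a short gene of 7.78 kb, had 3 promoter sites at 49.4, 47.8 and 31.9 inside its first 1 kb, all upstream of the TSS used. Syt9 (20.1, with 8.90 in replicate 1 and 8.59 in replicate 2) and Syt3 (19.3, with 8.72 and 10.9) were the weakest promoter sites of the 36 genes. The Syt3 summit also lay within 1 kb of the TSS of Gm45124. Syt1, the main sensor of fast release in forebrain, had its nearest summit 277 kb from a TSS, the farthest of the 36 genes, although its body held 6. Syt4 and Syt11, whose C2 domains do not sense calcium as Syt1 does, also had none at the promoter. Their nearest summits were 3.04 and 2.48 kb from a TSS. At Syt11 that was an internal start, and the summit lay 20635 bp from the 5′ end of the gene. The 6 synaptotagmin genes with a promoter site thus had strongest values from 19.3 to 67.3, and those of Syt6 and Syt7 were above the list's median of 64.3.

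All 9 synaptotagmin gene bodies held a site, 33 summits in all. In the quintiles of gene length that these genes fall in, 34.2 to 89.4% of all protein-coding genes held one. Syt2 had 8 and Syt1 and Syt7 had 6 each. The strongest was near the 3′ end of Syt7 in an untranslated exon (chr19:10449803-10450059), with 363, and 181 in replicate 1 and 182 in replicate 2. Syt7 held another at 277 in intron 7, with 167 in replicate 1 and 111 in replicate 2. Syt2 reached 248 in intron 2 (126 and 121 in replicates 1 and 2), 4.20 kb upstream of the internal start. Syt4 reached 244 in intron 2 (129.7 in replicate 1 and 114 in replicate 2). Syt9 had 1 body site, in intron 6 at 215 (104 and 108), and Syt3 had 213 in intron 9 (106 and 104). Syt1 sites were weaker, with a highest value of 148 (84.0 and 63.7) in intron 3. The strongest body sites of Syt2, Syt3, Syt4, Syt7 and Syt9 thus all stood above 200, where no synaptotagmin promoter passed 67.3.

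SNARE proteins pull the membranes together, Vamp1 and Vamp2 from the vesicle and Stx1a and Snap25 from the plasma membrane, and complexins hold the assembled complex ready for calcium. Of these 6 genes, Cplx2, Cplx1 and Vamp1 had a promoter site and Stx1a, Snap25 and Vamp2 did not. Cplx2 (chr13:54371429-54371572) stood highest with 114, and 64.7 in replicate 1 and 50.2 in replicate 2, 173 bp past the TSS in an untranslated exon. Cplx1 (chr5:108549769-108550068) had 34.6, with 18.1 and 15.9 in replicates 1 and 2. Vamp1 (chr6:125215572-125215871) had 23.3, with 13.2 and 11.3. The order of these 3 promoters was the same in both replicates.

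Cplx2 is 12.6 kb long and held 4 summits, including 305 in its first intron (chr13:54372818-54373074; 156 in replicate 1 and 149 in replicate 2) 1603 bp from the TSS. Its neighbours in the gene stood at 78.2 and 18.6. Vamp1 had 216 in intron 3, with 109 in replicate 1 and 105 in replicate 2, and a weaker site at 62.9 where Tapbpl also lies. Stx1a held 34.5 and 19.4, and Snap25 held 59.2. Vamp2, which at 3.90 kb is the shortest of the 36 genes, held no site. A peak of 209 (chr11:69092428-69092656; 115 in replicate 1 and 93.1 in replicate 2) lay 152 bp beyond its 3′ end.

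The vesicle membrane genes include synaptophysin (Syp), which binds Vamp2, and the SV2 transporter-like glycoproteins, and Rab3a is the small GTPase of docking vesicles. Promoter sites were found at 2 of 5 genes, Sv2c and Sv2b. Sv2c (chr13:96132455-96132754) had 39.8, with 17.4 in replicate 1 and 22.2 in replicate 2, and shares the interval with the TSS of Gm29543. Sv2b (chr7:75308319-75308618) had 23.5, with 15.7 and 5.51, the largest replicate difference in favour of replicate 1 among the 143 sites. It lay within 1 kb of the TSS of 1500012K07Rik. Neither promoter reached the list's median.

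Inside the genes, Sv2c held 6 summits and Sv2b held 5. Sv2c reached 298 in intron 12 (159 in replicate 1 and 142 in replicate 2) and 253 in intron 3 (139 and 116). Sv2b reached 155 in intron 9 (75.4 and 79.5). Syp had 129 in intron 5 (77.9 and 53.4) and a coding exon site at 50.4. Rab3a, the shortest of the 36 genes after Vamp2, had 1 site of 123 in intron 4 (63.8 and 59.1). Sv2a had none in its body, and a peak of 67.9 lay 627 bp past its 3′ end.

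Active zone proteins scaffold the release site: Bassoon (Bsn) and Piccolo (Pclo) are its giant organizers, RIMs (Rims1, Rims2) tether vesicles and calcium channels, Munc13s (Unc13a, Unc13b, Unc13c) prime vesicles, and ELKS (Erc2) and liprins (Ppfia2, Ppfia3) bind RIMs and each other. A promoter site was found at 3 of these 10 genes, Erc2, Ppfia3 and Unc13c, a share near the 36.8% of all protein-coding genes. Erc2 (chr14:27622146-27622393) had 278, with 146 in replicate 1 and 131 in replicate 2, 166 bp upstream of the TSS. Ppfia3 (chr7:45367363-45367635) had 250.0, with 120.3 and 131, beside a weaker site of 35.4. Its stronger summit lies within Mtag2 and within 1 kb of the starts of Mtag2 and Gm45619. Unc13c (chr9:73968888-73969187) had 56.5, with 29.1 and 27.1, 72 bp upstream.

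Counted from any TSS, several of the other 7 active zone genes were far from their nearest summit. Those were Pclo at 126 kb, Ppfia2 at 116 kb, Rims1 at 46.6 kb and Rims2 at 16.3 kb. The Rims1 and Rims2 distances were from internal starts. From the 5′ ends of these genes, the nearest gene body summits lay 71378 and 19197 bp away. Bsn was 6.69 kb, Unc13a 3996 bp and Unc13b 1399 bp from the nearest. All 10 held a site in the gene body. In the longest quintile of gene length, where most of the 10 lie, 89.4% of all protein-coding genes held one. In the fourth, with Unc13a and Ppfia3, 68.5% did. Active zone genes are long, and the 48 summits in their bodies come to 1.36 per 100 kb, the lowest of the 6 role groups, followed by endocytosis with 1.86. The vesicle membrane genes had 3.45, the synapsins 3.38, the synaptotagmins 3.28, and the SNAREs and complexins 6.29.

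Erc2, at 856 kb the longest of the 36 genes, held 14 summits. A pair in intron 4, 181779 and 185844 bp from the 5′ end, stood at 335 and 342, with 184 and 173 in replicate 1 and 159 and 168 in replicate 2. Both motifs lie on the strand of the gene. Rims2 held 5 summits, the strongest 337 in intron 4 (178 in replicate 1 and 159 in replicate 2). Unc13a reached 313 in intron 8 (167 and 147), Ppfia2 273 in intron 3 (142 and 132) and Ppfia3 223 in intron 25 (132 and 94.2). The Ppfia2 summit lies under 4930532I03Rik as well.

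The remaining active zone genes had lower highest values inside, though Unc13b was close to Ppfia3 and above it in replicate 2. Unc13b reached 217 in intron 7 (118 in replicate 1 and 96.8 in replicate 2). Pclo, at 349 kb, held 1 summit, of 143 in intron 20 (78.1 and 64.4), with 0 mismatches to the core. Rims1 reached 129 in intron 9 (65.1 and 63.9) and Unc13c 124 in intron 24 (63.8 and 57.8). Bsn had 3 sites, none above 65.3. Long genes of this group differed in number, from 1 summit in Pclo and 3 in Unc13c, at 490 kb, to 14 in Erc2.

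**Figure D2:**
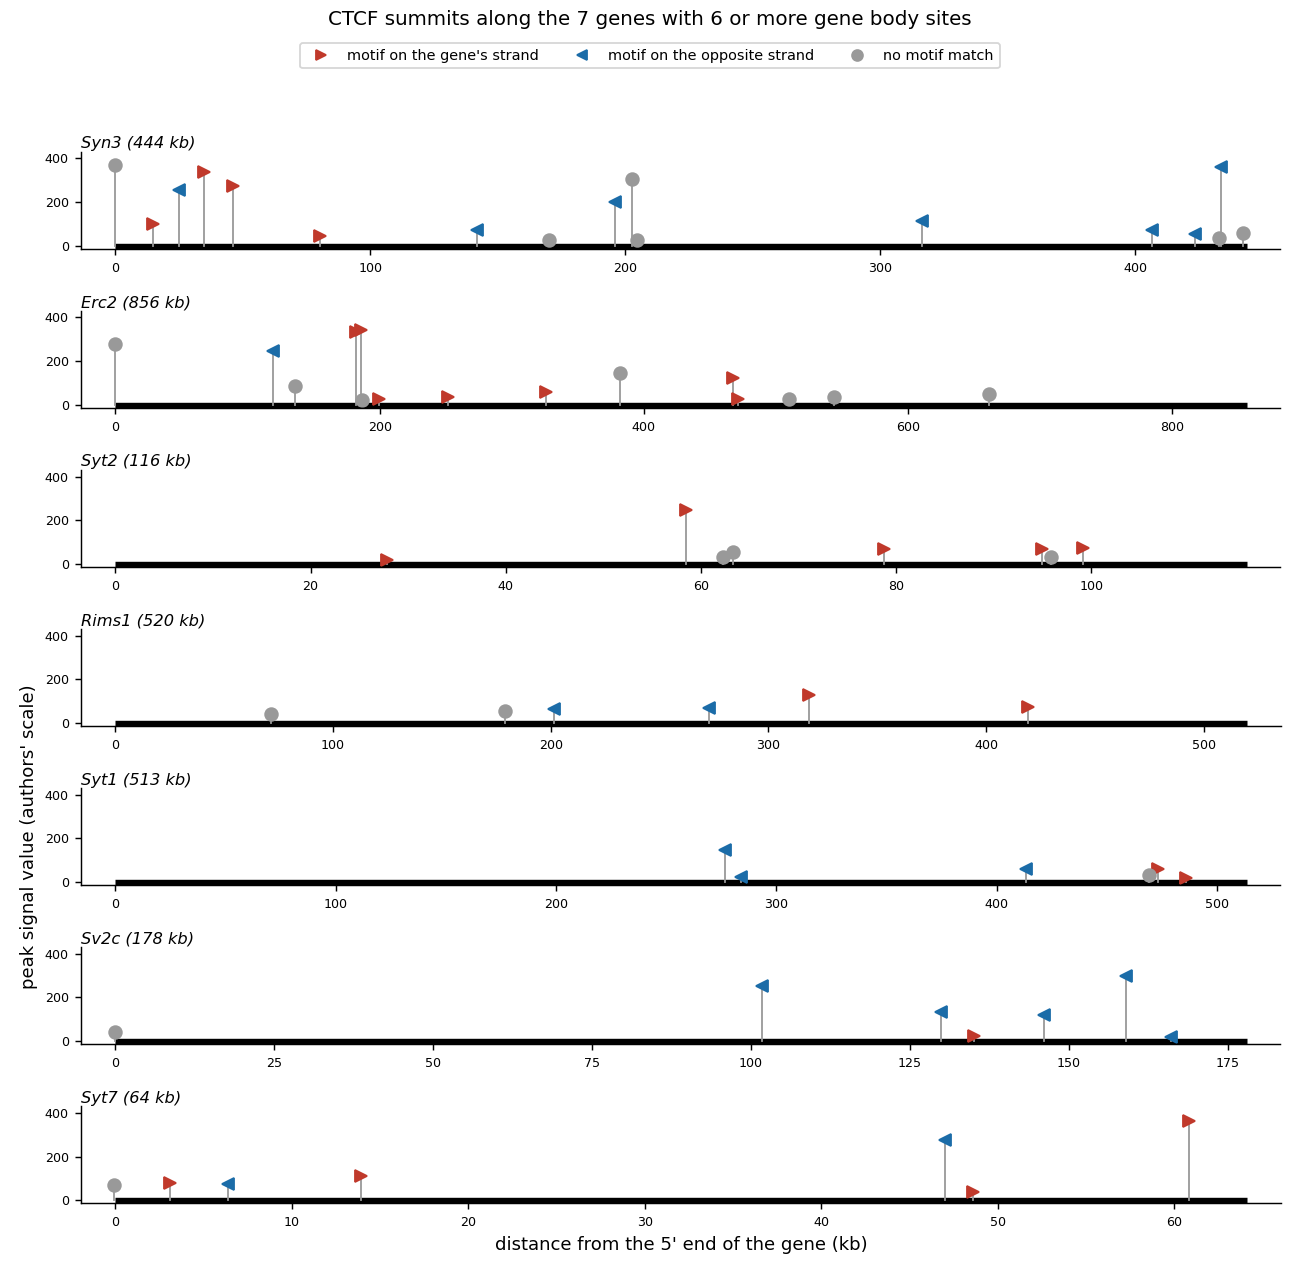
Summits of promoter and gene body sites along the 7 genes with 6 or more gene body sites, drawn by distance from the 5′ end of the gene in kb, with the authors' signal value as the height. Triangles point along the gene where the core motif is on the gene's strand and against it where it is on the other strand, and grey circles have no match. Syn3 and Erc2 carry a strong circle at their 5′ end, and the triangles of Syt2 all point along the gene.

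Endocytosis genes retrieve membrane: dynamin 1 (Dnm1) cuts the vesicle neck, amphiphysin (Amph) bends membrane and recruits dynamin, and synaptojanin 1 (Synj1) strips clathrin coats by dephosphorylating lipids. All 3 had a promoter site. Dnm1 (chr2:32353223-32353494) had 348, with 190.2 in replicate 1 and 158 in replicate 2, 33 bp upstream of the TSS and within Ciz1, the gene next to it. Amph (chr13:18948172-18948313) had 154, with 87.7 and 66.6, 35 bp past the TSS. Synj1 (chr16:91011417-91011716) had 48.0, with 27.5 and 19.5, 259 bp upstream and within 4930404I05Rik. The first 2 stood well above the median promoter of protein-coding genes and Synj1 beside it.

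Dnm1 was bound at both ends. A second strong peak (chr2:32308195-32308439) lay 140 bp beyond its 3′ end, with 299.5, and 159 in replicate 1 and 141 in replicate 2. Its motif matched the core without a mismatch, on the opposite strand to that of the promoter.
Dnm1, beyond the 3′ end, chr2:32308310-32308339, minus strand: tgcttacaCCACTAGGGGGCAGtatcatga
Between them the gene body held 2 weak summits of 27.8 and 23.9. The motifs of both end sites point away from the gene. In Amph the strongest body site was 236 in intron 17 (115 and 120.2 in replicates 1 and 2), and Synj1 had none.

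Sites at the 3′ end were counted after the Vamp2 and Dnm1 values had been seen. A summit lay within 1 kb of the gene's 3′ end in 5 of 36 genes, Vamp2, Sv2a, Bsn, Dnm1 and Ppfia3, or 13.9%, where 9.29% of all protein-coding genes had one. At Bsn it lay 250 bp beyond the end (chr9:108095685-108095874) with 184, and 92.8 in replicate 1 and 89.9 in replicate 2. That peak was stronger than any site inside Bsn. At Ppfia3 the summit was inside the gene, with 79.5.

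The 17 genes without a promoter site in the optimal list were not empty there. All 17 had a weaker summit within 1 kb of a TSS in the list called on both libraries, with signal values from 6.19 at Sv2a to 23.8 at Ppfia2 and a median of 13.2. At a q-value of 0.05, 14 of 17 kept one, where 28.1% of all protein-coding genes without an optimal-list promoter site did. These shares were not matched for GC content, whose median at the start was 61.0% for the 36 genes and 54.7% for all. The part of GC content in this difference was not tested. Summits at that q-value stood in both replicates' own lists for 11 of 17. At Sv2a neither replicate's list had a summit there, and at Syt11 only that of replicate 1 did. At Snap25 the values were 11.9 together, 8.72 in replicate 1 and 3.49 in replicate 2. The weakest promoters of the optimal list itself, Syt3 and Syt9 at 19.3 and 20.1, lie within the range of these 17, so having a site or not turns on the list's threshold for such genes. Syn2, Vamp2, Rims1 and Unc13b, which lack a promoter site in the optimal list, had one in the authors' conservative list, and Syt3 and Sv2b had none there.

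The core motif was less frequent at the promoters than inside the genes. It was found within 50 bp of 7 of 24 promoter summits, or 29.2% (14.9 to 49.2%), where 36.9% of all protein-coding promoter summits had it. In gene bodies more than 1 kb from a gene's own TSS it was found at 83 of 119 summits, or 69.7% (61.0 to 77.3%). Of all protein-coding gene body summits more than 1 kb from any protein-coding TSS, a slightly stricter set, 72% had it. Both shares are close to those of all genes. The 7 promoters with the motif were those of Dnm1, Amph, Cplx2, Unc13c, Syt5, Sv2b and Syt3, and Dnm1 alone had only 1 mismatch.

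Sites closer to the core motif had higher median signal values. Over the 143 sites the median was 143 at the 13 sites with 0 mismatches, 112.6 at 33 sites with 1, 66.4 at 44 with 2, 49.4 at 37 with 3, 28.3 at 15 with 4 and 20.1 at the only site with 5. The motif and strength are not tied at every site. Stx1a has the core without a mismatch at a site of only 34.5, and Syn3's promoter has the highest value of all 143 sites with 4 mismatches. Among all promoter summits of protein-coding genes without the motif, 0.644% were as strong as that of Syn3, 2.02% as that of Erc2 and 2.88% as that of Ppfia3. Over the whole peak, and not only near the summit, the best match had 3 mismatches at Syn3 and Erc2 and 2 at Ppfia3. A missing match says only that these letters are not in the window.

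**Figure D3:**
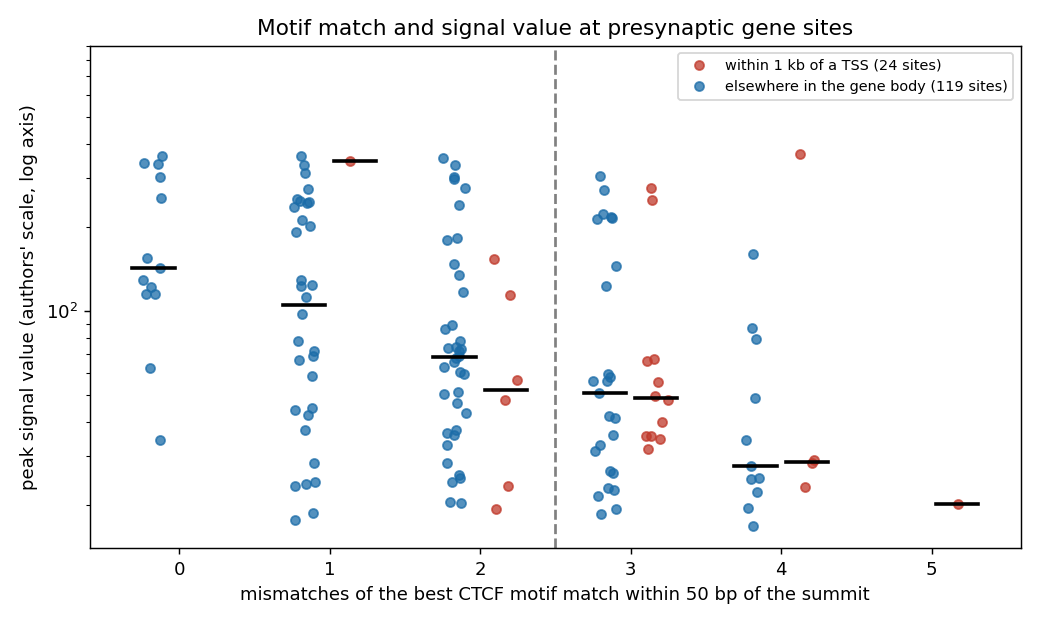
Signal value on a log axis of the 143 sites by the number of mismatches of the best core match within 50 bp of the summit, with promoter sites in red, other gene body sites in blue and bars at the median of each colour. Points are spread sideways to keep them apart, and sites left of the dashed line count as having the motif. All 13 sites with 0 mismatches lie more than 1 kb from any TSS of their own gene, and 3 promoters without the motif stand above 200.

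The direction of the motif gave no common rule over the genes. Of 88 motif-bearing gene body sites, 42 had it on the gene's strand, where the share over all protein-coding genes was 48.6%. Single genes varied. Of 14 genes with 3 or more such sites, 4 had all on a single strand. Those were Syt2 with 5 on its own strand, and Sv2b with 4, Cplx2 with 3 and Amph with 3 on the opposite one. The same share over all protein-coding genes was not counted, so this count is not read as a trait of these genes. In Erc2, 7 of 8 lay on the gene's strand, and in Sv2c 5 of 6 on the opposite strand. Syn3 was mixed, with 4 on its strand and 7 on the other.

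Most sites, 118 of 143, lay within the gene's ends but in no exon, and are called intronic here. Another 10 lay in untranslated exons, 6 in coding exons and 9 outside the gene upstream of its start. The 118 include the 3 promoter sites of Syt5, which lie upstream of the TSS of its basic-set transcript and so in no intron of it. The coding exon sites were in Syn1, Syt11, Syp, Bsn, Unc13a and Dnm1, of which Unc13a had the highest value, 161. In the first intron of the longest coding transcript lay 23 of 134 gene body sites. Promoter summits were close to the start, at a median of 155 bp, and 14 of 24 lay within 200 bp. Adjacent summits of a gene were 13.1 kb apart at the median, and 9 of 101 adjacent pairs lay within 1 kb of each other. Such pairs included sites of 155 and 18.7 in intron 9 of Sv2b. Another gene of the annotation covered 11 of the 134 gene body sites, so these cannot be assigned to the presynaptic gene alone.

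The count of genes with a body site goes with length. The median length was 69.7 kb for the 36 genes and 17.4 kb for all protein-coding genes. In the longest quintile, from 58.12 kb, 20 of 21 of these genes had a site, against 89.4% of all genes. In the fourth quintile the count was 7 of 7 against 68.5%, and the lower ones together held 8 of the 36 genes. Over their whole length the presynaptic gene bodies had 134 summits, or 2.20 per 100 kb (exact Poisson 95% interval 1.84 to 2.60), and all protein-coding gene bodies had 2.95. The direction of that difference turned with length. In the longest quintile the densities were 1.75 per 100 kb for these genes and 2.39 for all genes. In the 4 shorter quintiles these genes were the denser ones, with 12.7 against 8.43 in the shortest, then 34.5 against 5.93, 13.8 against 5.12 and 7.50 against 3.88. Those quintiles hold only 2, 2, 4 and 7 of the genes. The interval covers counting error only, and summits within a gene are not independent. Across the 36 genes, Spearman's rho of length and summits was 0.54, and 0.61 across all protein-coding genes, as a description of genes that share the same libraries.

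**Figure D4:**
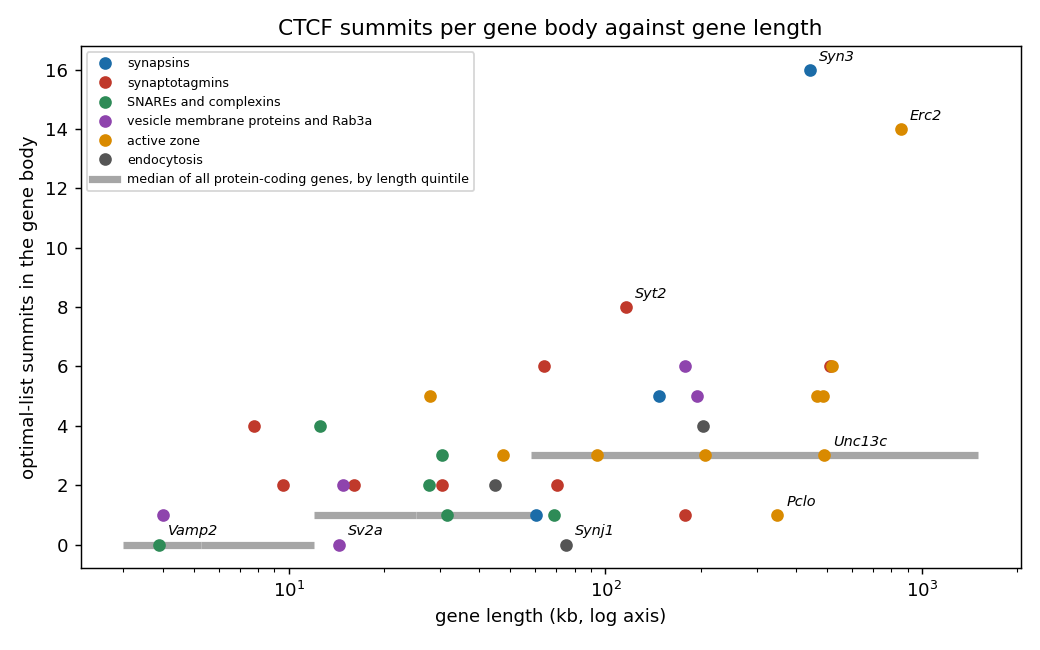
Number of optimal-list summits in the gene body of each of the 36 genes against gene length in kb on a log axis, coloured by role, with grey bars at the median of all protein-coding genes of each length quintile. Syn3 with 16 and Erc2 with 14 are far above the median of 3 in the longest quintile, while Pclo with 1 and Synj1 with 0 lie under it. That quintile runs from 58.12 to 4434.88 kb, and its median is not adjusted for length. Per 100 kb, Syn3 had 3.61 summits and Erc2 1.64, against 2.39 for all genes of the quintile.

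The nearest motif-bearing summits outside each gene were used to describe its setting. They faced each other across 11 of 36 genes, where 28.7% of all protein-coding genes lay between such convergent motifs. They pointed apart at 8 genes, against 25.1% of all protein-coding genes, and the same way at 17, against 46.2%. These counts are close to the shares of all genes. The convergent genes were Syn1, Syn3, Syt2, Syt4, Syt7, Syt9, Stx1a, Vamp2, Cplx2, Bsn and Pclo. The span between the flanking motifs had a median of 209 kb, from 11.3 kb at Rab3a to 1393 kb at Ppfia2, and 106 kb for all genes. Each span includes the gene itself, and the median gene length was 69.7 kb for the 36 genes against 17.4 kb for all. The part of gene length in that difference was not tested. Rab3a lay between peaks of 175 and 203, 2.49 kb upstream and 4.85 kb downstream, whose motifs point apart. The strongest flanking peaks were those of Unc13a with 481 (249.5 in replicate 1 and 234 in replicate 2), Rims1 with 422 (219.9 and 203) and Syn3 with 414 (231 and 186). Peak lists do not show which of these sites touch each other.

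All 143 sites had a peak in both replicates' own lists, and Spearman's rho of the replicate values was 0.94 over them, as a description. The optimal list was selected for reproducible peaks and each replicate's list holds 300000, so that agreement is largely fixed by the selection. After centring on the median over all optimal-list sites, the log2 ratio of replicate 1 to replicate 2 had an SD of 0.47 over these sites and 0.50 over all. The SD was 0.27 over the 72 sites at or above the list's median and 0.60 over the 71 below it. A centred log2 ratio beyond 1 in either direction was found at 9 of 143 sites, or 6.29%, against 6.26% of all, and none of the 9 had a signal value above 37.3. The extremes were a Syt1 intron site at -1.62, with 6.53 in replicate 1 and 17.5 in replicate 2, and the Sv2b promoter at 1.31. Differences between weak promoters, such as Syt3, Syt9, Vamp1 and Sv2b, therefore lie within the spread between libraries, while those between these and Syn3, Dnm1, Erc2 or Ppfia3 do not.

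**Figure D5:**
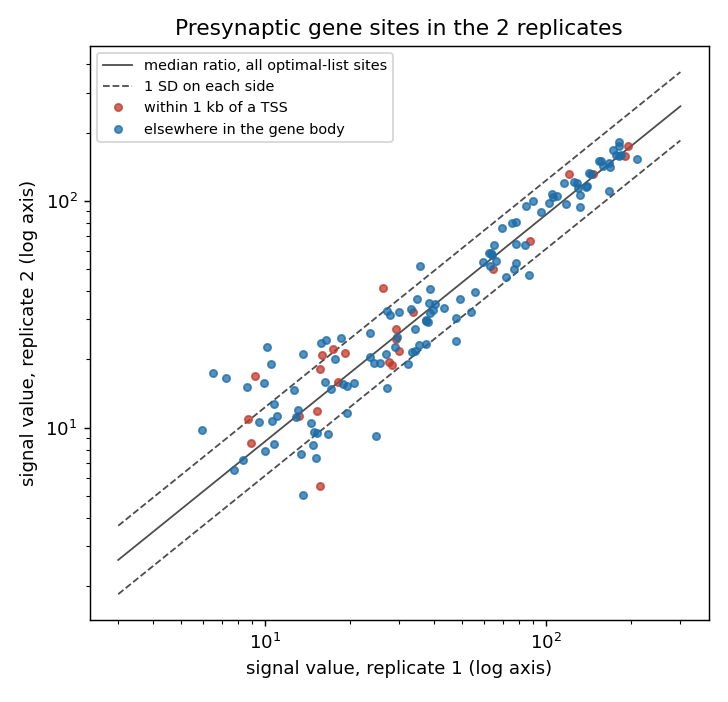
Signal value of the 143 sites in replicate 1 against replicate 2, both from each replicate's own list and on log axes, with promoter sites in red and other gene body sites in blue. The solid line is the median ratio over all optimal-list sites and the dashed lines are 1 SD, 0.50 on the log2 scale, to either side. Points close in on the line at high values and spread at low ones.

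Other genes of the same machinery were counted in the same way, from a list of 70 names of which 69 were in the annotation used. A promoter site was found at 39 of 69, or 56.5%, and 15 of these genes, or 21.7%, had one at or above the list's median. A gene body site was found in 57, or 82.6%. The strongest promoters were those of Apba1, an adaptor of Munc18 (428), the liprin Ppfia4 (357), beta-synuclein Sncb (324), the adaptor Apba2 (242) and the vesicle protein Syngr1 (219). The shares at promoters are close to those of the 36 genes.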

How the data were processed

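Deposited files were narrowPeak lists on mm10, per the labels: optimal and conservative IDR lists, a list of both libraries together and a list of each replicate. Which aligner and peak caller were used, and how deep the libraries were, is not given in the sources used here. The authors' signal value was used to rank and describe peaks, and their −log10 q-value to set a q of 0.05. The deposited score was not used beyond its range check, and the deposited summit offset placed each summit. Genes, TSSs and gene ends came from the GENCODE M21 basic set, and sequence from GRCm38. The CTCF core consensus, 14 bases, was looked for on either strand, allowing 2 mismatches, with its centre within 50 bp of the summit. A replicate's value at a site is that of its strongest overlapping peak. Shares of all protein-coding genes or of all summits stand beside the main counts. Counts of place within the gene, spacing, overlap with other genes and motif strand in single genes have no such share and are description only. All 36 genes are named, with replicate values for most, but not all, promoter sites and strongest gene body sites. Sites at 3′ ends, flanking sites and part of the sequences were named after their values were seen. The genes and lists were chosen with earlier results of these data known, and no test was run. Alternatives were other lists, windows, gene models, motif limits and each replicate alone. The counting and motif scan were tested on simulated data. Tools were pandas 2.3.3, numpy 2.4.6, pysam 0.24.0, scipy 1.17.1 and matplotlib 3.10.9 under Python 3.11.15.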

Additional observations from a re-analysis of the deposited data

How the results depend on the processing

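The 19 genes with a promoter site became 8 when only peaks at or above the optimal list's median signal value were kept, and gene body summits went from 134 to 67. They became 33 with the list of both libraries together at a q-value of 0.05, an alternative chosen after seeing the data, where 54.5% of all protein-coding genes had a site. The conservative list is not a subset and gave 21, against 35.5% of all protein-coding genes. It lost Syt3 and Sv2b and gained Syn2, Vamp2, Rims1 and Unc13b. Windows of 500 bp, 2 kb and 5 kb gave 17, 20 and 26 genes, against 30.4, 42.5 and 52.3% of all. With 1 replicate's list alone, cut to the length of the optimal list, 22 genes had a promoter site, 35 a gene body site, and gene body summits were 134 to 137. Of all protein-coding genes, 37.2 to 38.3% had a promoter site and 53.2 to 53.8% a gene body site in those lists. Snap25, Syp, Sv2a, Bsn and Pclo had no promoter site in the optimal, conservative or single-replicate lists or in these windows. The share of sites with the core motif was 62.9% and moved to 32.2% with at most 1 mismatch, 88.8% with at most 3, and 77.8% among sites at or above the median. With single replicates it was 60.4 to 61.6%. Over all optimal-list sites the share was 67.2%, and 36.5 and 88.0% with at most 1 and 3 mismatches, so these shares lie near each other. The strongest promoter value was the same in the conservative list at each of the 17 genes with a site in both lists. Of the 143 sites, 126 have the same ends and summit in both lists, so that equality is not an independent check. No paired analysis was possible because the series has 1 group. Depth is unknown, so a missing site says only that no peak passed the threshold.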
